A study of Mus musculus with 4 samples.

Results

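The genes described are 9 components of the postsynaptic side of excitatory synapses, Dlg2, Dlg4, Shank1, Shank2, Shank3, Homer1, Homer2, Homer3 and Ddn, taken by symbol from a table of 24411 genes. All 9 had a row, and all 9 passed the filter on low counts that left 15359 genes for testing. The tissue was mouse cochlea at postnatal day 7. Pups of one genotype carried the Otof knockout on both alleles and pups of the other on a single allele. Otof encodes otoferlin, the calcium sensor with which inner hair cells release glutamate. No wild-type animals were among the samples, so each difference is that of homozygous from heterozygous pups. There were 2 pools per genotype, each of both cochleas of 2 to 3 pups, which makes 4 messenger RNA libraries.

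Spiral ganglion neurons receive glutamate from the ribbons of inner hair cells, and on the neuronal side the receptors are held in place by a postsynaptic density. In that structure Dlg4 (PSD-95) and Dlg2 (PSD-93) bind receptor and channel tails, Shank proteins form a deeper layer attached through GKAP proteins, and Homer proteins join Shank to metabotropic glutamate receptors and to calcium release channels. Dendrin, encoded by Ddn, is a proline-rich protein of neuronal dendrites whose mRNA is carried into dendrites, and it is also known from the podocytes of the kidney.

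The homozygous libraries held 38090726 and 31509349 estimated counts and the heterozygous libraries 36060275 and 32453532. The limit that a count of 0 allows (3 counts) lay between 0.0788 and 0.0952 counts per 1000000 (CPM), and the lowest count of any of the 9 genes was 141. Otof was at 0.129 and 0.280 CPM in the homozygous pools, against 2.42 and 2.61 CPM in the heterozygous pools, which is the order the labels give. Its log2 fold change was -3.62 ± 0.46 (SE; DESeq2 adjusted p = 9.63e-06), a call that held in 2 of 4 fits without a library (adjusted p 0.00322 to 0.133). Xist had 2 and 19085 counts in homozygous replicates 1 and 2, against 5771 and 6733 in the heterozygous pools, and Ddx3y, a Y-linked gene, had 3878 and 0 counts in the same homozygous pools, against 2700 and 1872 in the heterozygous pools. Sex-linked RNA thus differed between the homozygous pools. Of 15 hair cell markers, 7 were under 1 CPM in every pool, among them Pou4f3, Atoh1 and Slc26a5, while all 20 spiral ganglion and pan-neuronal markers were tested.

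The genes lie on chromosomes 7, 8, 11, 13 and 15 of GRCm38, and 0 of the 9 are on chromosome 5 with Otof. Ddn is at chr15:98803777-98809490 on the minus strand. Its exons overlap B130046B21Rik, an antisense RNA at chr15:98807024-98816077, which was not analysed here. In all, 6 of the 9 genes (Ddn, Homer2, Homer3, Shank1, Shank2 and Shank3) overlap another annotated gene on the opposite strand within an exon. No source used here says whether strand was kept, so reads of such partners cannot be told apart.

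The promoter windows of the 3 Homer genes are shown because Homer1 is known as a gene whose transcription neuronal activity induces. In these pools Homer1 and Homer2 had similar log2 fold changes (-0.39 ± 0.18 and -0.43 ± 0.14, SE), while that of Homer3 was 0.10 ± 0.10. Differences among the 3 genes were not tested. Each window runs from 250 bases before to 50 bases after a start site in RefSeq (GRCm38.p6), and 6 of the 9 genes had such an entry. They are chr13:93303507-93303806 on the plus strand for Homer1, chr7:81706876-81707175 on the minus strand for Homer2 and chr8:70282749-70283048 on the plus strand for Homer3. Capitals mark TGACG on either strand, the core of the cyclic AMP response element, to which the activity-dependent factor CREB binds.
Homer1: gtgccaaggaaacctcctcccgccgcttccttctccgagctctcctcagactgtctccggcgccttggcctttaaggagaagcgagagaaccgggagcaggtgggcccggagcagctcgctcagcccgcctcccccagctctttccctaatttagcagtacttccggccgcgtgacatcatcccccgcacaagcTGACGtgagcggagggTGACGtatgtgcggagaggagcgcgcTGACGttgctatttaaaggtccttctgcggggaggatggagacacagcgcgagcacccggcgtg
Homer2: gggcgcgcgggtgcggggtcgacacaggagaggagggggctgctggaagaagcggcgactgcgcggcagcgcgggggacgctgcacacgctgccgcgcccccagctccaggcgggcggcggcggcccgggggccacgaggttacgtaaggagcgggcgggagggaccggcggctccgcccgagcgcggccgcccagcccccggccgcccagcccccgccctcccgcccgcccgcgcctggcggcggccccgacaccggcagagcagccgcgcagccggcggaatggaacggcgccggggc
Homer3: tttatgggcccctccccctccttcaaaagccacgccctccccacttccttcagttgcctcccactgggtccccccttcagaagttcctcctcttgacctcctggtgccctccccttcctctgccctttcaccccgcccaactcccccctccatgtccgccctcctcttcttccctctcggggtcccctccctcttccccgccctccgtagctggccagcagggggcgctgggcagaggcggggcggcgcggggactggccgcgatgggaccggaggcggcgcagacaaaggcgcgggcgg
The Homer1 window held 3 such cores, whose first bases lie 56, 40 and 14 bases before the start, and the windows of Homer2 and Homer3 held 0. At least 1 core was in 20.8% and at least 3 were in 1.03% of 32851 such windows. The full palindrome TGACGTCA, which holds the core once on each strand, was in none of the 3 windows and in 1.79% of all windows. A match is a string of letters and not a shown binding site. The windows were 63.0% G or C for Homer1, 82.3% for Homer2 and 69.7% for Homer3.

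The comparison asked how these genes differed between homozygous and heterozygous cochleas. Ddn was lower in homozygous pools by a factor of 3.05, and the 8 scaffold genes did not pass either test. Ddn fell by DESeq2, the tool the study names (adjusted p = 4.60e-17). By the quasi-likelihood test of edgeR its adjusted p was 0.105, and that test called 0 of 15359 genes (0%), with 2038 genes (13.3%) at an unadjusted p under 0.05. The 8 scaffold genes together gave 439.1 and 428.8 CPM in the homozygous pools, against 439.4 and 464.8 CPM in the heterozygous pools. These sums did not overlap, but those of homozygous replicate 1 and heterozygous replicate 1 were nearly equal. The sums were not tested.

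**Figure D1:**
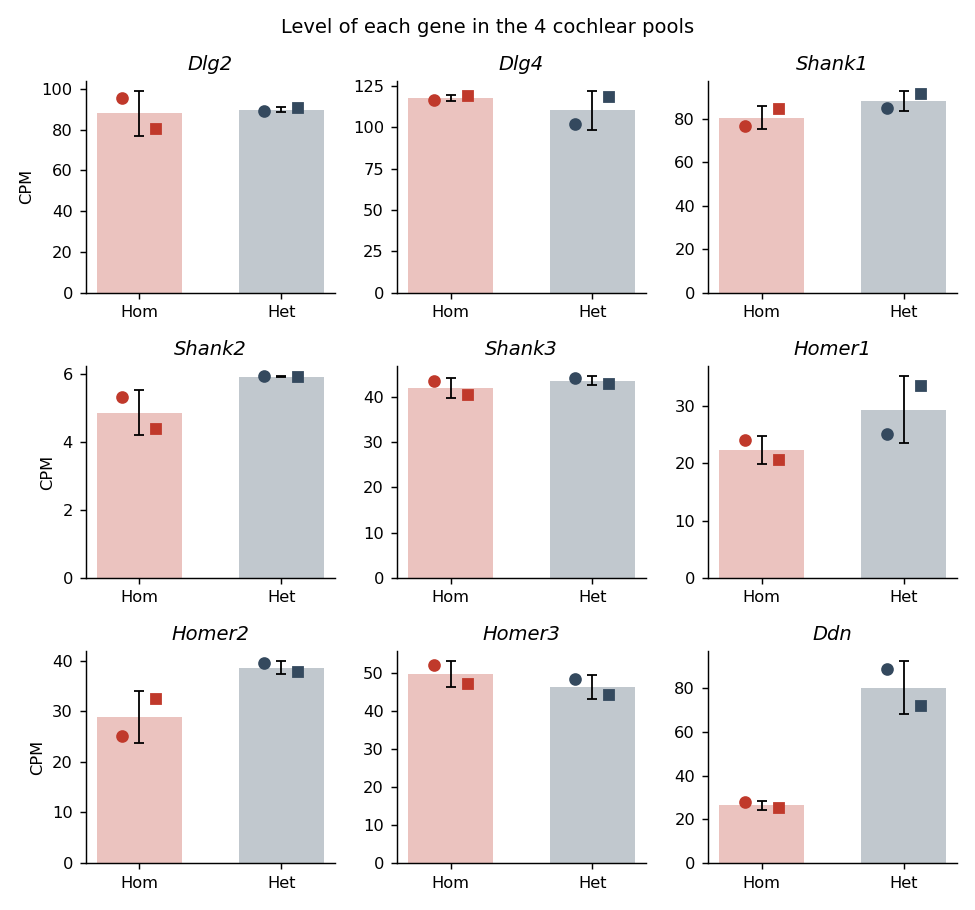
Level of each of the 9 genes in counts per 1000000 (CPM, vertical axes from 0) in homozygous (Hom, red) and heterozygous (Het, blue-grey) pools. Circles are replicate 1 and squares replicate 2, bars are means and error bars the SD (n = 2). Ddn is the gene with the widest gap between genotypes, at 27.7 and 25.0 CPM in homozygous and 88.7 and 71.7 CPM in heterozygous pools.

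Dendrin RNA was at 27.7 and 25.0 CPM in homozygous replicates 1 and 2, against 88.7 and 71.7 CPM in heterozygous replicates 1 and 2. Behind these levels stood 1071 and 801 counts in the homozygous pools, against 3157 and 2279 counts in the heterozygous pools. Both homozygous pools lay below both heterozygous pools, by more than the pools of either genotype lay apart. The mean level was 26.3 ± 1.9 CPM in homozygous and 80.2 ± 12 CPM in heterozygous pools (SD, n = 2). On the log2 scale that was a difference of -1.61 ± 0.13 (SE), with a 95% interval of -1.96 to -1.26. Its p was the 11th smallest of all genes by edgeR and the 13th smallest by DESeq2. In the authors' deposited table Ddn had a log2 fold change of -1.60 with an adjusted p of 7.04e-17, was at place 13 of 343 genes by adjusted p, and was the 1 member of the 9 listed. That table was made by the authors from this same series and is not separate evidence. Its name mentions removed outliers, and no source used here says which libraries entered it. Without each library in turn, Ddn fell by DESeq2 in all 4 fits, with log2 fold changes between -1.75 and -1.44. In bulk tissue, fewer cells of a type and less RNA per cell cannot be told apart.

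Across the whole table DESeq2 called 670 of 15716 genes (4.26%), 512 of which fell (3.26%) and 158 rose (1.01%). Of the 9 genes 1 fell, which is Ddn, and 0 rose. In edgeR 8.91% of all genes were lower and 4.36% higher at an unadjusted p under 0.05, and 2 of the 9, Ddn and Homer2, were lower. Of all genes tested, 46.1% had pools that did not overlap, with homozygous pools wholly lower in 24.5% and wholly higher in 21.6%. Among the 9 genes 5 were wholly lower (Ddn, Homer1, Homer2, Shank1 and Shank2) and 0 wholly higher, while on plain library totals 6 did not overlap and 4 of these were lower. These counts were not tested against those of all genes. The median log2 fold change of the 9 was -0.13, against 0.0087 over all genes tested.

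**Figure D2:**
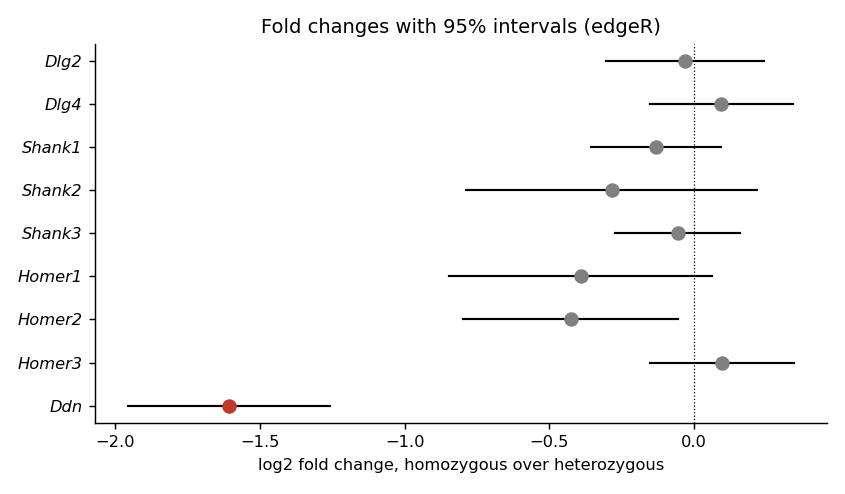
Log2 fold change of each gene, homozygous over heterozygous (horizontal axis), as points with 95% intervals from edgeR (lines). Red marks an adjusted p under 0.05 by DESeq2 and grey the rest; the interval of Ddn runs from -1.96 to -1.26, and the lowest bound among the scaffolds is -0.85 (Homer1).

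The membrane-proximal scaffolds had nearly the same levels in the genotypes. Dlg4, which encodes PSD-95, the major scaffold of glutamatergic synapses, was at 116 and 119 CPM in homozygous pools, against 102 and 119 CPM in heterozygous pools. Heterozygous replicate 1 was the low library, and the genotypes overlapped. Its log2 fold change was 0.10 ± 0.10 (SE), with a 95% interval of -0.15 to 0.34. Dlg2, which encodes PSD-93, was at 95.7 and 80.2 CPM in homozygous pools, against 88.9 and 90.7 CPM in heterozygous pools. Here the homozygous pools enclosed the heterozygous ones. The log2 fold change of Dlg2 was -0.03 ± 0.11 (SE), with a 95% interval of -0.30 to 0.24. For both genes a change of 2-fold in either direction lies outside the interval, while changes within it were not resolved.

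The Shank genes, which encode the scaffolds between GKAP and Homer, were likewise near the heterozygous level. Shank1 was at 76.8 and 84.4 CPM in homozygous pools, against 85.1 and 91.5 CPM in heterozygous pools. Its pools did not overlap, but homozygous replicate 2 and heterozygous replicate 1 were close. The log2 fold change was -0.13 ± 0.09 (SE), with a 95% interval of -0.36 to 0.09. Shank3 was at 43.5 and 40.4 CPM in homozygous pools, against 44.2 and 42.8 CPM in heterozygous pools. These values overlapped, and the interval of the log2 fold change was the narrowest of the 9, from -0.27 to 0.16. Shank2, the lowest of the 9 genes also per kilobase of transcript, was at 5.33 and 4.39 CPM in homozygous pools, against 5.93 and 5.91 CPM in heterozygous pools. Both homozygous pools were lower, with a log2 fold change of -0.28 ± 0.19 (SE) and a 95% interval of -0.79 to 0.22, the widest among the Dlg and Shank genes. The counts behind Shank2 were 206 and 141 in homozygous and 211 and 188 in heterozygous pools.

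Of the Homer genes, Homer1 and Homer2 had fold changes below 0 and Homer3 had not, none of them past an adjusted p of 0.05. Homer1, the gene with the activity-induced short form Homer1a beside its long forms, was at 24.1 and 20.6 CPM in homozygous pools, against 25.2 and 33.5 CPM in heterozygous pools. Both homozygous pools were lower, but heterozygous replicate 1 lay nearer to them than to heterozygous replicate 2. The log2 fold change was -0.39 ± 0.18 (SE), with a 95% interval of -0.85 to 0.06. The table sums all forms of a gene, so Homer1a and the long forms were not told apart. Homer2, whose long forms make tetramers through a coiled coil, was at 25.1 and 32.4 CPM in homozygous pools, against 39.5 and 37.7 CPM in heterozygous pools. Its homozygous pools were both lower and lay further apart than the heterozygous ones. The log2 fold change was -0.43 ± 0.14 (SE), with a 95% interval of -0.80 to -0.05, an unadjusted edgeR p of 0.0326, and adjusted p of 0.331 by edgeR and 0.260 by DESeq2. Homer3 was at 52.0 and 47.1 CPM in homozygous pools, against 48.5 and 44.1 CPM in heterozygous pools. The genotypes overlapped, with a log2 fold change of 0.10 ± 0.10 (SE) and a 95% interval of -0.15 to 0.35. Over the 8 scaffold genes, edgeR's adjusted p ran from 0.331 to 0.935 and that of DESeq2 from 0.260 to 0.998.

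Summed over the family, Homer RNA was 101 and 100.2 CPM in homozygous pools, against 113 and 115 CPM in heterozygous pools. The sums did not overlap, and no test was made of them. Per kilobase of the longest annotated transcript, Homer3 made up 75.4% and 73.4% of the family's level in homozygous pools, against 69.9% and 64.5% in heterozygous pools. With the length of all exons joined, those shares were 79.0% and 76.2% in homozygous, against 72.9% and 68.9% in heterozygous pools, and these shares were not tested. In the Shank family, Shank1 held 54.6% and 59.0% of the family's level per kilobase in homozygous and 56.5% and 59.0% in heterozygous pools, and the shares of Shank1 and Shank3 overlapped between genotypes. The share of Shank2 did not overlap, at 4.14% and 3.36% in homozygous and 4.31% and 4.17% in heterozygous pools, and it was not tested. With the length of all exons joined it did overlap, at 3.9473% and 3.1807% in homozygous and 4.0935% and 3.9468% in heterozygous pools. Dlg4 held 60.0% and 64.7% of the level per kilobase of the Dlg2 and Dlg4 pair in homozygous and 58.6% and 61.7% in heterozygous pools.

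Ordered by level, Ddn moved most. In CPM per kilobase of the longest transcript, the homozygous order was Homer3 (19.0 ± 1.3, SD, n = 2), Dlg4 (18.6 ± 0.32), Dlg2 (11.3 ± 1.4), Shank1 (8.20 ± 0.55), Ddn (7.03 ± 0.52), Shank3 (5.69 ± 0.30), Homer1 (3.92 ± 0.43), Homer2 (2.62 ± 0.47) and Shank2 (0.541 ± 0.074). Of the neighbours in it, Homer3 and Dlg4 overlapped in range. In heterozygous pools Ddn stood first at 21.4 ± 3.2 CPM per kilobase, ahead of Homer3 (17.8 ± 1.2) and Dlg4 (17.4 ± 1.8), and the other genes followed in the same order. There, the overlapping neighbours were Homer3 with Dlg4 and Shank3 with Homer1. The order depends on which transcript is taken: with the length of all exons joined, 4 of the 9 genes had the same rank in homozygous pools and 4 of the 9 in heterozygous pools. With that length Ddn was again at rank 1 in heterozygous pools and at rank 4 in homozygous pools, and Shank2 was last in both.

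Other genes of the postsynaptic density were read from lists of its known parts. Of 6 relatives and partners in the PSD-95 and GKAP layer (Dlg1, Dlg3 and Dlgap1 to Dlgap4), 0 passed DESeq2 or edgeR, and their median log2 fold change was 0.10. Dlgap3, a GKAP that binds PSD-95 and Shank, had the lowest fold change (-0.50 ± 0.16, log2, SE), at 28.9 ± 3.7 CPM in homozygous and 40.8 ± 7.1 CPM in heterozygous pools (SD, n = 2), with DESeq2's adjusted p at 0.184. Dlgap2 had the highest fold change (0.66 ± 0.31, log2, SE), at 2.95 ± 0.65 CPM in homozygous and 1.87 ± 0.34 CPM in heterozygous pools. Dlgap1, another GKAP, had 0.13 ± 0.09 and Dlg3 0.15 ± 0.13 (log2 fold change, SE), both with an adjusted p above 0.05.

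Among 20 signalling and actin-linked proteins bound to these scaffolds, 1 fell and 1 rose by DESeq2, and the median log2 fold change was -0.05, which turned to 0.021 without homozygous replicate 2 (edgeR). Iqsec1, an exchange factor for Arf6, fell to 87.2 ± 6.3 CPM in homozygous pools, against 129.5 ± 8.1 CPM in heterozygous pools (SD, n = 2; DESeq2 adjusted p = 0.00106). Kalrn, kalirin, an exchange factor of dendritic spines, was at 34.3 ± 3.4 CPM in homozygous and 23.9 ± 0.46 CPM in heterozygous pools and rose by DESeq2 (adjusted p = 0.0301). Without each library in turn the DESeq2 call of Iqsec1 held in 1 of 4 fits, the one without homozygous replicate 1, and that of Kalrn in 0 of 4. Camk2g, a calcium/calmodulin kinase subunit, had -0.21 ± 0.08 and Anks1b, a partner of PSD-95, -0.74 ± 0.34 (log2 fold change, SE), with DESeq2 adjusted p of 0.512 and 0.263.

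Receptors and calcium release channels to which Homer binds included the lowest fold changes of the 5 related lists. The list also held Trpc1, Orai1 and Stim1, genes of calcium entry. Of its 11 genes 3 fell by DESeq2 and 0 rose, and the median log2 fold change was -0.73, with 7 genes below 0 and 4 above. That median rests on single libraries: it was -0.35 without homozygous replicate 2 and -0.098 without heterozygous replicate 1 (edgeR). DESeq2 called 4 of the 11 genes without homozygous replicate 1, 2 without homozygous replicate 2, 2 without heterozygous replicate 1 and 1 without heterozygous replicate 2. Grm5, the metabotropic glutamate receptor mGluR5, was at 1.32 and 0.561 CPM in homozygous pools, against 5.54 and 11.2 CPM in heterozygous pools. Both homozygous pools were lower, and heterozygous replicate 2 was the highest library. Ryr1, a ryanodine receptor calcium release channel best known from skeletal muscle, was at 2.77 and 2.31 CPM in homozygous pools, against 9.25 and 8.59 CPM in heterozygous pools. The DESeq2 adjusted p was 2.21e-06 for Grm5 and 1.30e-07 for Ryr1. It was lost for Grm5 without heterozygous replicate 2 (0.0854) and for Ryr1 without heterozygous replicate 1 (0.0655). Ryr2, the cardiac and neuronal form, had a log2 fold change of -0.96 ± 0.32 (SE) and a DESeq2 adjusted p of 0.126.

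**Figure D3:**
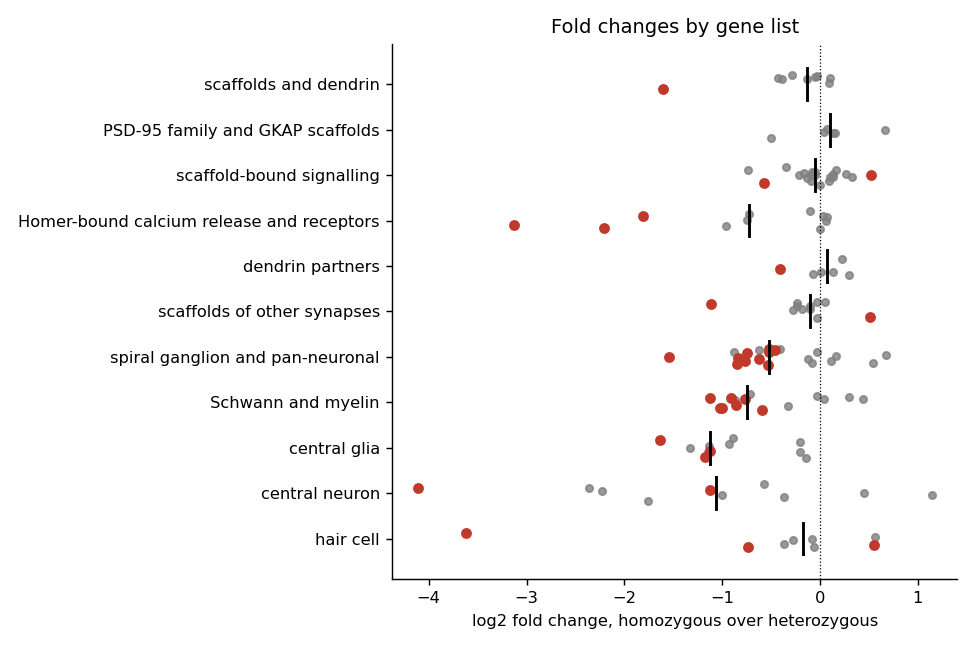
Log2 fold change of each tested gene, homozygous over heterozygous (horizontal axis), by gene list (rows; height within a row is only to separate points). Red points passed DESeq2 at an adjusted p of 0.05, grey points did not, and black bars are list medians. These are -0.13 for the 9 genes, -0.73 for the Homer-bound list and -0.53 for the neuronal markers.

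Of 7 proteins known to bind dendrin, 6 were tested, and 1 fell and 0 rose by DESeq2, with a median log2 fold change of 0.07 that turned to -0.069 without homozygous replicate 1 (edgeR). The gene that fell was Magi2 (S-SCAM), a synaptic scaffold with WW and PDZ domains, at 51.4 ± 2.3 CPM in homozygous and 68.5 ± 3.0 CPM in heterozygous pools (SD, n = 2; DESeq2 adjusted p = 0.0304), and the call held in 0 of 4 fits without a library. Magi1 (0.30 ± 0.10), Cd2ap (0.23 ± 0.10) and Actn4, an actin crosslinker (0.13 ± 0.10), had log2 fold changes above 0 without passing. Of 11 scaffolds of other or mixed synapses 1 fell and 1 rose by DESeq2, with a median of -0.10. They were Lin7b, at 3.74 ± 0.57 CPM in homozygous and 8.10 ± 0.47 CPM in heterozygous pools, and Lin7a, at 60.1 ± 7.5 CPM in homozygous and 42.3 ± 2.0 CPM in heterozygous pools (SD, n = 2). Lin7a and Lin7b encode related PDZ proteins of the complex with Cask. Their DESeq2 adjusted p was 0.0296 for Lin7a and 0.00535 for Lin7b, and each call held in 0 of 4 fits without a library. Gphn, gephyrin, the scaffold of inhibitory synapses, had a log2 fold change of -0.28 ± 0.09 (SE) and did not pass DESeq2.

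The genes whose pattern over the 4 libraries was most like that of Ddn were Hapln1, Myh7b and Ryr1, of 13395 candidates. Likeness is the Euclidean distance between log2 CPM centred on each gene's own mean, which was 0.13 for Hapln1, 0.14 for Myh7b and 0.16 for Ryr1. Hapln1, a link protein of hyaluronan matrix, was at 33.5 and 33.5 CPM in homozygous pools, against 107 and 87.5 CPM in heterozygous pools. Myh7b, a myosin heavy chain, was at 25.7 and 21.3 CPM in homozygous pools, against 85.8 and 68.0 CPM in heterozygous pools. In each of the 3, as in Ddn, heterozygous replicate 1 was the highest library, which follows largely from how they were chosen. With 4 libraries many genes can be alike in this way, and the distance is a description.

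Marker lists of neurons and of other cells moved with genotype in the same pools. The 20 spiral ganglion and pan-neuronal markers summed to 6598 and 6299 CPM in homozygous pools, against 9268 and 9097 CPM in heterozygous pools, and 10 of them fell and 0 rose by DESeq2. One of these was Slc17a6, a vesicular glutamate transporter, with the lowest log2 fold change of the list (-1.55 ± 0.16, SE). The other 10 did not pass DESeq2, and 4 of the 20 had log2 fold changes above 0, up to 0.68. The 14 Schwann and myelin markers summed to 26603 and 21964 CPM in homozygous pools, against 43029 and 44372 CPM in heterozygous pools, and 7 fell and 0 rose by DESeq2. Of the 14, 3 had log2 fold changes above 0, up to 0.44. The 11 central glia markers summed to 1574 and 552 CPM in homozygous pools, against 1936 and 1858 CPM in heterozygous pools. Of these 3 fell by DESeq2, all 11 had log2 fold changes below 0, and 0 were at 0 CPM in every pool. Homozygous replicate 2 had the lowest central glia sum of the 4 pools. Of 12 central neuron markers, which summed to 155 and 126 CPM in homozygous and 194 and 167 CPM in heterozygous pools, 2 fell by DESeq2, Neurod6 and Calb1 (Calb1 is named here after its values were seen). Neurod6, a transcription factor of forebrain neurons, was at 0.103 and 0.031 CPM in homozygous pools, against 0.590 and 1.95 CPM in heterozygous pools. It was highest in heterozygous replicate 2. None of the 12 was at 0 in every pool, and 3 were under 1 CPM in each. Of the 10 that were tested, 2 had log2 fold changes above 0, up to 1.14. The call of Neurod6 held in 0 of 4 fits without a library. The part of these markers in the values of Ddn, the scaffolds and the Homer-bound receptors was not tested.

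Set against the summed neuronal markers, all 8 scaffolds had log2 ratios of means above 0, and Ddn had one below 0. The neuronal sum itself was lower in homozygous pools, so a gene of equal CPM in both genotypes has a ratio above 0 by construction. Ddn amounted to 0.420% and 0.396% of the neuronal sum in homozygous pools, against 0.958% and 0.788% in heterozygous pools, a log2 ratio of means of -1.10. Dlg4 amounted to 1.76% and 1.89% of it in homozygous pools, against 1.10% and 1.30% in heterozygous pools. Dlg2, Shank1, Shank2, Shank3 and Homer3 were also wholly higher in homozygous pools by this measure, with log2 ratios between 0.22 and 0.61. Homer1 and Homer2 overlapped between genotypes, with log2 ratios of 0.11 and 0.09. These ratios were not tested, and 3 neurofilament genes made up 51.7% and 51.8% of the neuronal sum in homozygous pools, against 54.1% and 52.3% in heterozygous pools. As a percentage of the 8 scaffolds' summed CPM, Ddn was 6.31% and 5.82% in homozygous pools, against 20.2% and 15.4% in heterozygous pools.

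**Figure D4:**
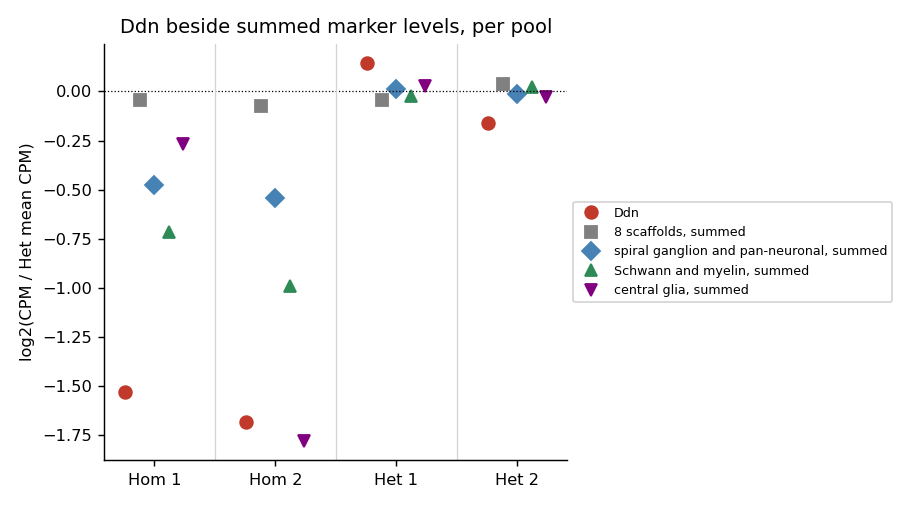
Ddn, the 8 summed scaffold genes and 3 summed marker lists in each pool, as log2 of the level over the heterozygous mean (vertical axis), with homozygous pools (Hom 1, Hom 2) left of heterozygous pools (Het 1, Het 2). Ddn (red circles) was low in both homozygous pools, the scaffolds (grey squares) lay near 0, and central glia (purple triangles) differed between the homozygous pools, at 1574 and 552 CPM.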

How the data were processed

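Salmon's estimated counts for each gene were deposited by the authors. The submitters' processing notes name mm10 as the build, and no source used here names the annotation. The authors' deposited table of changed genes holds a mean normalised signal, a log2 fold change with its standard error, a Wald score, and p-values, per the file headers.

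The estimated counts were rounded to integers and the genotypes tested with edgeR 4.0.16 (quasi-likelihood, TMM scaling, filterByExpr, R 4.3.3), with Benjamini-Hochberg adjustment over all genes, and DESeq2 1.42.0 (Wald, default settings) was run beside it. The verbs rose and fell are used of genes past an adjusted p of 0.05 by DESeq2. CPM are counts per 1000000 on TMM-scaled library sizes. Standard errors and 95% intervals come from edgeR's F statistic. With 2 pools against 2, an exact two-sided permutation test cannot go below p = 0.333, so none was run. The fits were also run on counts simulated with the dispersions that edgeR had fitted to these pools. Such a run checks the code and cannot show whether the model suits the pools.

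Pools of a genotype were not a repeated library, with a chi-square of 42.1 per degree of freedom between the homozygous and 25.5 between the heterozygous pools. The labels do not say that the pools come from separate litters, so p-values take in no more than the spread between pools. Both tools draw each gene's variance in part from other genes. In edgeR there were 2 residual and a median of 2.86 prior degrees of freedom. The limit that a count of 0 allows covers counting error only. The members and lists were chosen with earlier results of these data known. Named are all 9 members, called genes and up to 4 genes of smallest p per related list, up to 2 per marker list for the values given, and the 3 genes most like a called member, and other genes are marked as chosen after their values were seen. Transcript lengths and positions come from GENCODE M21 on GRCm38, the build the submitters call mm10. Hair cell, supporting cell and podocyte markers were also read. Some genes of the lists that the rule names are not reported here.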

Additional observations from a re-analysis of the deposited data

How the results depend on the processing

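edgeR called 0 genes with RLE or upper quartile factors, no filter or a stricter filter, and between 0 and 60 without each library in turn (60 without homozygous replicate 1). DESeq2 called 670 genes, and 681 without homozygous replicate 1, 310 without homozygous replicate 2, 223 without heterozygous replicate 1, 169 without heterozygous replicate 2, and 608 with the replicate block. Nothing in the labels pairs pools by number. Deviations of same-numbered pools correlated at r = 0.36 across genes, and with the replicate block edgeR called 495 genes, among them Ddn (log2 fold change -1.60, adjusted p = 0.00714). Members called were 0 by edgeR, and 1, Ddn, with the block and by DESeq2 with or without it and without each library. The log2 fold change of Ddn was -1.60 by DESeq2 and -1.59 by DESeq2 with the block, and without each library it lay between -1.75 and -1.45 by edgeR (adjusted p 0.0679 to 0.297) and at -1.69, -1.52, -1.44 and -1.75 in the same order by DESeq2. 3 scaffolds changed direction without a library: Dlg2 ranged from -0.17 to 0.10 (edgeR) and -0.16 to 0.10 (DESeq2), Shank3 from -0.12 to 0.0076 (edgeR) and -0.11 to 0.0093 (DESeq2), and Dlg4 from -0.0090 to 0.21 (edgeR) and -0.0011 to 0.21 (DESeq2). Dlg2 and Shank3 turned without homozygous replicate 2 and Dlg4 without heterozygous replicate 1, and the cause was not tested. Of the ranks by level per kilobase over all 4 pools, 2 of 9 were kept with the length of joined exons and 2 of 9 with no length correction, which follows from the lengths used. Within homozygous pools these counts were 4 and 1 of 9, and within heterozygous pools 4 and 2 of 9. On plain library totals 6 members did not overlap between genotypes, 4 of them lower, against 5 with TMM scaling. Of 75 recomputed medians of the 5 related lists, 19 moved by more than the spread between pools, all of these without a library. Ratios to the neuronal sum do not depend on library scaling by construction. Fits of DESeq2 without a library or with the block were chosen after seeing the data. A fit without a library assumes that the lone pool varies like the other genotype.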

Other observations

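The neighbours of Ddn on chromosome 15 were read too, and they and the genes below were partly chosen after their values were seen. Prkag1, a subunit of AMP-activated protein kinase at chr15:98812797-98831521 on the same strand, was at 57.0 and 57.6 CPM in homozygous pools, against 55.1 and 54.5 CPM in heterozygous pools, with a log2 fold change of 0.07 ± 0.07 (SE; DESeq2 adjusted p = 0.977), against -1.61 ± 0.13 for Ddn. Wnt1, at chr15:98789857-98793837, had 0 counts in all 4 libraries.

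Dendrin is also known from kidney podocytes, and of 6 podocyte markers 4 (among them Nphs1 and Wt1) were under 1 CPM in every pool. Synpo, synaptopodin, which podocytes and dendritic spines share, was at 46.4 ± 2.2 CPM in homozygous and 34.9 ± 3.4 CPM in heterozygous pools (SD, n = 2), with a DESeq2 adjusted p of 0.113. Podxl was at 46.4 ± 8.7 CPM in homozygous and 41.5 ± 16 CPM in heterozygous pools. Of the supporting cell markers 9 were tested, of which Fgfr3, a growth factor receptor of pillar cells, fell by DESeq2 to 17.7 ± 0.65 CPM in homozygous pools, against 26.2 ± 1.4 CPM in heterozygous pools (adjusted p = 0.0170), a call that held in 0 of 4 fits without a library. Among the 8 hair cell markers tested, Otof and Pvalb fell by DESeq2 and Espn rose. Pvalb, also a gene of spiral ganglion neurons, was at 267 ± 31 CPM in homozygous and 445 ± 2.0 CPM in heterozygous pools (SD, n = 2).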
